A study of Mus musculus with 9 samples.

Results

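The expression of 7 genes of hepatic fatty acid use was followed across 9 mouse liver tumours: the nuclear receptor gene Ppara, the fatty acid binding protein gene Fabp1, the oxidation genes Cpt1a, Acadm, Ehhadh and Acaa1b, and the kinase gene Pdk4. They were taken by gene symbol from a deposited table of 32761 genes, and each symbol matched 1 row. The tumours grew in the liver from Hepa1-6-luc, a luciferase-marked mouse hepatoma line. Control tumours came from mice whose injections are not described in the labels. Lenvatinib+anti-PD1 mice received free lenvatinib, an inhibitor of VEGF and FGF receptor kinases, every 3 days, and an antibody against the T cell receptor PD1, 50 µg at each injection, every 4 days. Co+Len@OVA+anti-PD1 mice received a drug-loaded nanocluster at 2 mg/mL on the schedule of the free drug, with the same antibody. What Co stands for is not given in the labels, and the effects of the carrier, of Co and of the form of the drug cannot be told apart. Both treated groups received the antibody, so against Control the effects of drug and antibody cannot be told apart either. Below, "with free lenvatinib" and "with the nanocluster" name these whole groups, antibody included. Each group had 3 tumours taken on day 14, 1 library each. The labels do not say whether the 3 tumours of a group came from separate mice, so p-values measure the spread between these samples.

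PPAR-alpha, encoded by Ppara, is a fatty acid-activated nuclear receptor that pairs with RXR and switches on genes of fatty acid oxidation and ketone body formation in hepatocytes, above all in fasting. Fabp1 carries fatty acids through the hepatocyte cytosol, and long chains then enter mitochondria through the carnitine shuttle or are shortened in peroxisomes. Fabp1, Cpt1a, Acadm, Ehhadh, Acaa1b and Pdk4 are all known targets of PPAR-alpha in rodent liver.

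The values are FPKM, that is, fragments normalised to the length of the transcript and to the size of the library, and levels of different genes are set beside each other on that scale. Differences are on the log2(FPKM + 0.5) scale, which understates the change of low genes, with the SE and the Benjamini-Hochberg adjusted p from one limma fit of 15353 genes. "Rose" and "fell" refer to an adjusted p under 0.05 in that fit. The third library of each group lay between the other two for 94% to 97.2% of the 278 to 350 genes with a gap of over 4-fold between the first and second, and for 4 or 5 of the 7 genes. If the third libraries are not independent tumours, the p-values from 9 libraries are too small, and the fit to libraries 1 and 2 alone is given for each of the 7 genes and, as counts, for the gene lists. Values of single genes outside the 7 are from 9 libraries. Lenvatinib+anti-PD1 libraries 2 and 3 held skeletal muscle RNA, with 1742 and 697 FPKM of Acta1, muscle actin, against 10.9 in library 1 and 0.041 to 17.9 in the other groups. Control library 1 had the fewest macrophage transcripts and the most hepatocyte transcripts of its group. Markers of the hepatic lineage were present in every library. Afp, the fetal albumin-like protein made by hepatomas, lay at 233 to 439 FPKM and the hepatocyte factor gene Hnf4a at 25.2 to 29.2 FPKM. As the implanted line is a hepatoma, these levels do not show where the tumours grew.

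With free lenvatinib and anti-PD1, Fabp1 and the peroxisomal thiolase gene Acaa1b were over 10-fold above Control, Ehhadh and Acadm rose less, and the receptor gene Ppara fell. With the nanocluster and anti-PD1, Ppara, Fabp1, Acadm, Ehhadh and Acaa1b all fell below Control. Thus 4 of the 7 genes rose and 1 fell in Lenvatinib+anti-PD1 against Control, where 23.7% of all genes tested were called (13.8% higher and 9.87% lower). For the nanocluster group against Control, 0 rose and 5 fell, where 33.6% of all genes were called (20.9% higher and 12.7% lower). Between the treatments, with Lenvatinib+anti-PD1 as the reference, 1 rose and 5 fell, where 29.4% of all genes were called (17.3% higher and 12% lower). With libraries 1 and 2 alone, 2 rose with free lenvatinib (0.215% of all genes higher, 0.13% lower, 0.345% in all) and 2 fell between the treatments (0.443% higher, 1.93% lower, 2.38% in all). None was called with the nanocluster against Control (0.111% higher, 0.41% lower, 0.521% in all), where limma gave 3 of them, Fabp1, Ppara and Acaa1b, an unadjusted p under 0.05, as it did 3382 of all 15353 genes. The libraries of 2 groups did not overlap for 4 genes higher and 1 lower with free lenvatinib (26.1% and 17.4% of all genes, 43.5% in all). With the nanocluster 1 was wholly higher and 5 wholly lower than Control (32.4% and 17.3%, 49.7% in all), and between the treatments again 1 and 5 (34.3% and 20.4%, 54.8% in all). Both comparisons with Control use the same 3 Control libraries. Under median-of-ratios scaling the median of all genes moved from 0.13 to 0.00063 for the nanocluster group against Control, and the calls moved from 3209 higher and 1946 lower to 2060 higher and 2817 lower. Between the treatments they moved from 2657 higher and 1850 lower to 1991 higher and 2318 lower. Of the 7 genes, Cpt1a changed sign under that scaling, in the nanocluster group against Control.

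**Figure D1:**
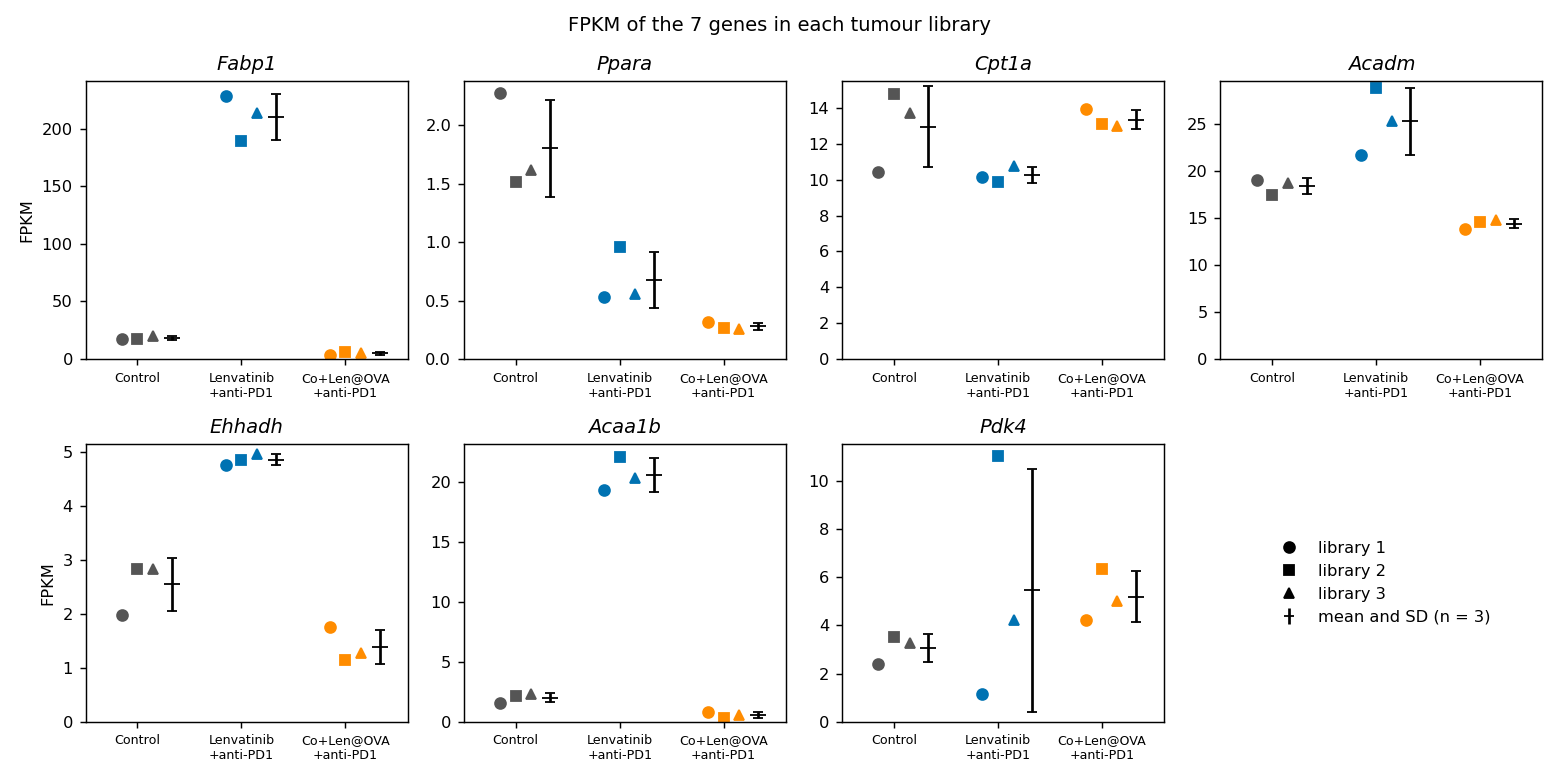
FPKM of each gene (y axis, from 0) in each of the 9 libraries, by group (x axis); symbols mark libraries 1 to 3 and bars the mean and SD (n = 3). Fabp1 and Acaa1b stand far above both other groups in all 3 Lenvatinib+anti-PD1 libraries, Ppara is highest in Control, and Pdk4 runs from 1.15 to 11.0 FPKM within Lenvatinib+anti-PD1.

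**Figure D2:**
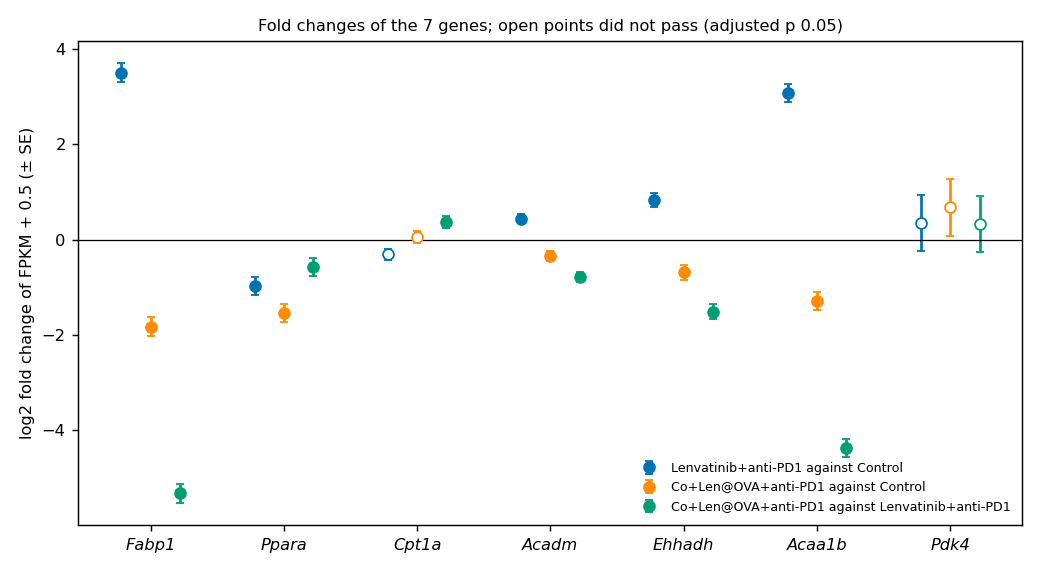
Difference on the log2(FPKM + 0.5) scale with its SE (y axis) for each gene (x axis) in the 3 comparisons; filled points passed an adjusted p of 0.05 in limma and open points did not. Fabp1 and Acaa1b have the largest differences of the 7 genes in Lenvatinib+anti-PD1 against Control and between the treatments, and no Pdk4 difference passed.

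Ppara, the receptor itself, was the least abundant of the 7 genes in the Control tumours. Its level was 2.28, 1.51 and 1.62 FPKM in Control libraries 1 to 3, 0.530, 0.954 and 0.553 in Lenvatinib+anti-PD1, and 0.315, 0.269 and 0.258 in Co+Len@OVA+anti-PD1. Every Control library was above every treated library, and every Lenvatinib+anti-PD1 library was above every nanocluster library. Ppara fell with free lenvatinib from 1.80 ± 0.413 to 0.679 ± 0.238 FPKM (SD, n = 3; log2 difference -0.97 ± 0.19 SE, adjusted p = 0.00844). It fell further from Control with the nanocluster, to 0.281 ± 0.030 FPKM (-1.55 ± 0.19, adjusted p = 0.000961). With libraries 1 and 2 alone neither passed (adjusted p = 0.229 and 0.0886), and without the muscle-bearing libraries the first was -1.15 with an adjusted p of 0.0703. Between the treatments the mean was 2.42-fold lower with the nanocluster (-0.58 ± 0.19, adjusted p = 0.0498). That call did not pass in 15 of the 19 other settings tried, and with a pseudocount of 0.1 the difference was -0.99 (adjusted p = 0.0275), whereas on libraries 1 and 2 alone its adjusted p was 0.33. In bulk tumour RNA, fewer cells that express a gene and less RNA in each cell cannot be told apart.

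Fabp1, the main fatty acid carrier of the hepatocyte cytosol, showed the widest range of the 7 genes in FPKM. The bases before its start are shown because Fabp1 had the largest log2 differences of the 7, beside those of Acaa1b, which had the most similar profile among the 7. They are from RefSeq on GRCm38.p6, which holds 250 bases upstream of each start, 5′ to 3′ on the strand of the gene. The motif searched, on both strands, was AGGTCA, any 1 base and AGGTCA again, the direct repeat that PPAR and RXR pairs bind. Capitals mark the 13-base windows with the fewest mismatches to it within the stretch shown.
Fabp1, chr6:71199629-71199878, + strand: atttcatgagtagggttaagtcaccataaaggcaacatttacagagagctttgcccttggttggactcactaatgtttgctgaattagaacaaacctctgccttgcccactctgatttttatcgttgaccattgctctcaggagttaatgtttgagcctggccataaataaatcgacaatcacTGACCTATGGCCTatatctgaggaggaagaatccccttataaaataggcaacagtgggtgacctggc
Acaa1b, chr9:119157094-119157343, - strand: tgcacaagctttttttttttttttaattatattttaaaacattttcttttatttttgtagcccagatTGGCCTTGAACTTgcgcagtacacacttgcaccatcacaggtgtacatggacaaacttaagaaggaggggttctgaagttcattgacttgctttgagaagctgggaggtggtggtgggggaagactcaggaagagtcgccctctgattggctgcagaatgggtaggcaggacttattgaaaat
The Fabp1 window lies 67 to 55 bases before the start and reads AGGcCAtAGGTCA on the opposite strand, where capitals mark bases that match the motif. It has 1 mismatch, and 0.554% of 32851 promoter windows of the same length (250 bases before to 50 after a start) hold a window with 1 mismatch or none. The best window of Acadm had 3 mismatches and those of Ppara, Cpt1a, Ehhadh, Acaa1b and Pdk4 had 4, against 24.6% of all promoters with 3 or fewer and 79.8% with 4 or fewer. A match of letters is a description of these windows and shows no binding.

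Fabp1 measured 17.4, 17.0 and 20.3 FPKM in Control, 228, 189 and 214 in Lenvatinib+anti-PD1, and 3.25, 6.25 and 5.25 in Co+Len@OVA+anti-PD1. The 3 groups did not overlap, and the order was Lenvatinib+anti-PD1, Control, Co+Len@OVA+anti-PD1. The mean rose 11.5-fold with free lenvatinib, from 18.2 ± 1.77 to 210 ± 19.7 FPKM (SD, n = 3; log2 difference 3.49 ± 0.20 SE, adjusted p = 5.06e-05). It fell with the nanocluster to 4.92 ± 1.53 FPKM, 3.71-fold below Control (-1.83 ± 0.20, adjusted p = 0.000655). Between the treatments it was 42.8-fold lower with the nanocluster (-5.32 ± 0.20, adjusted p = 2.74e-06). In libraries 1 and 2 alone the rise and the difference between the treatments passed (3.56 and -5.37, adjusted p = 0.0307 and 0.00586), and the fall from Control did not (-1.81, adjusted p = 0.0732). Library 1 of Lenvatinib+anti-PD1, with little muscle RNA, had the most Fabp1, and with it as the only library of the group the rise was 3.61 (adjusted p = 0.00894).

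Cpt1a, which forms the acylcarnitines that carry long-chain fatty acids into mitochondria, passed in neither comparison with Control. It measured 10.4, 14.7 and 13.7 FPKM in Control, 10.1, 9.86 and 10.7 in Lenvatinib+anti-PD1, and 14.0, 13.1 and 13.0 in Co+Len@OVA+anti-PD1. Control library 1 lay with the Lenvatinib+anti-PD1 libraries, and the other Control libraries with those of the nanocluster group. The difference of Lenvatinib+anti-PD1 from Control did not pass (-0.31 ± 0.12, adjusted p = 0.0901), and without Control library 1 it did (-0.46, adjusted p = 0.00212). It also passed under median-of-ratios and upper quartile scaling (adjusted p = 0.0214 and 0.0395). Co+Len@OVA+anti-PD1 differed from Control by 0.05 ± 0.12 (adjusted p = 0.743), with the sign reversed under both scalings and without Control library 1. Cpt1a was higher with the nanocluster than with free lenvatinib by 0.37 ± 0.12 (adjusted p = 0.0485), a call lost in 13 of 20 other settings. Its adjusted p with libraries 1 and 2 alone was 0.463 and 0.703 against Control, for free lenvatinib and the nanocluster, and 0.298 between the treatments. The summed FPKM of 10 macrophage genes was 339, 1382 and 1053 in Control, 480 to 574 in Lenvatinib+anti-PD1 and 1889 to 2210 in the nanocluster group. In Control the macrophage sum and Cpt1a were thus both lowest in library 1, and no marker of the list was at 0. The list's part in the Cpt1a values was not tested. Of the 10 genes, 7 rose between the treatments, and 1 with libraries 1 and 2 alone.

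Acadm, the mitochondrial dehydrogenase of medium-chain acyl-CoA, moved in the same directions as Fabp1 but far less. It measured 19.1, 17.5 and 18.8 FPKM in Control, 21.8, 28.9 and 25.3 in Lenvatinib+anti-PD1, and 13.9, 14.6 and 14.8 in Co+Len@OVA+anti-PD1. The groups did not overlap, and the highest values were in the Lenvatinib+anti-PD1 libraries with muscle RNA. It rose with free lenvatinib by 0.44 ± 0.10 (adjusted p = 0.0151), but with library 1 as the only one of that group the difference was 0.23 (adjusted p = 0.234). That call was also lost without library 3 of the group (0.43, adjusted p = 0.0560). It fell with the nanocluster by 0.34 ± 0.10 on the log2 scale (adjusted p = 0.0290), a call lost in 9 of 20 other settings. Between the treatments it was lower with the nanocluster (-0.78 ± 0.10, adjusted p = 0.000896). In libraries 1 and 2 alone the 3 adjusted p were 0.271, 0.270 and 0.0846.

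The peroxisomal pair moved in the same order of groups. Ehhadh, the bifunctional enzyme of peroxisomal beta-oxidation, measured 1.97, 2.82 and 2.83 FPKM in Control, 4.76, 4.84 and 4.95 in Lenvatinib+anti-PD1, and 1.75, 1.14 and 1.28 in Co+Len@OVA+anti-PD1. The 3 Lenvatinib+anti-PD1 libraries were nearly equal, and the nanocluster libraries lay below all of Control. It rose with free lenvatinib by 0.83 ± 0.16 (adjusted p = 0.00756) and fell with the nanocluster by 0.69 ± 0.16 on the log2 scale (adjusted p = 0.0127). The fall was lost without library 3 of Co+Len@OVA+anti-PD1 (-0.65, adjusted p = 0.0505), and the rise with library 1 as the only one of Lenvatinib+anti-PD1 (0.80, adjusted p = 0.159). Between the treatments it was 3.49-fold lower with the nanocluster (-1.51 ± 0.16, adjusted p = 0.000340). In libraries 1 and 2 alone the 3 adjusted p were 0.192, 0.243 and 0.0549.

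Acaa1b, a thiolase that splits off acetyl-CoA in the last step of the peroxisomal cycle, measured 1.61, 2.17 and 2.30 FPKM in Control and 19.4, 22.1 and 20.3 in Lenvatinib+anti-PD1. In Co+Len@OVA+anti-PD1 it measured 0.820, 0.278 and 0.544 FPKM, below every Control library. The mean was 10.2-fold above Control with free lenvatinib (3.07 ± 0.19, adjusted p = 6.81e-05) and 3.70-fold below with the nanocluster (-1.29 ± 0.19, adjusted p = 0.00245). Between the treatments the nanocluster group was 37.7-fold lower (-4.37 ± 0.19, adjusted p = 5.43e-06). In libraries 1 and 2 alone the rise and the difference between treatments passed (adjusted p = 0.0362 and 0.00951) and the fall from Control did not (0.122). Its paralog Acaa1a was singled out after its values were seen. Acaa1a rose in both treated groups, so its direction was that of Acaa1b with free lenvatinib but not with the nanocluster. It measured 9.28 ± 1.60 FPKM in Control, 14.2 ± 1.63 with free lenvatinib and 13.9 ± 0.311 with the nanocluster (adjusted p = 0.0141, 0.0127 and, between the treatments, 0.916). Neither difference of Acaa1a from Control passed with libraries 1 and 2 alone (adjusted p = 0.237 and 0.162). The longest protein-coding transcripts of the 2 genes (GENCODE M21) are 93.0% identical over 1636 aligned bases, with an identical run of 327 bases. How the authors assigned fragments that match both was not stated in the labels, and the split between the 2 levels is uncertain.

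Pdk4, the kinase that turns off pyruvate dehydrogenase when fatty acids are burned, was the member with the widest spread inside a group. It measured 2.41, 3.51 and 3.27 FPKM in Control, 1.15, 11.0 and 4.25 in Lenvatinib+anti-PD1, and 4.23, 6.33 and 5.03 in Co+Len@OVA+anti-PD1. The Lenvatinib+anti-PD1 libraries spanned both other groups, and every nanocluster library lay above every Control library. No difference passed (0.35 ± 0.59, 0.67 ± 0.59 and 0.33 ± 0.59, adjusted p = 0.710, 0.399 and 0.696, for Lenvatinib+anti-PD1 against Control, for the nanocluster group against Control and between the treatments), nor did any with libraries 1 and 2 alone (0.882, 0.641 and 0.831). Pdk4 is also strongly expressed in muscle. The summed FPKM of 14 skeletal muscle genes was 34.6, 4912 and 1946 in the 3 Lenvatinib+anti-PD1 libraries, 2.38 to 46.9 in Control and 43.5 to 51.1 in Co+Len@OVA+anti-PD1. Of the 14, 9 rose in Lenvatinib+anti-PD1 against Control and none passed in the other comparisons. None passed on libraries 1 and 2 alone, and limma gave 5 an unadjusted p under 0.05 in that comparison. The myosin heavy chain genes Myh1, Myh2, Myh4 and Myh7 were listed at 0 in Control library 1. The part of muscle RNA in the Pdk4 values was not tested. With libraries 2 and 3 left out, Lenvatinib+anti-PD1 was library 1 alone, which had the lowest Pdk4 value, 1.15 FPKM. Its difference from Control was then -1.10, and the nanocluster group was higher than it by 1.77. Without library 2 alone the difference from Control was -0.34, and without library 1 the difference between the treatments was -0.39. The muscle-rich library 2 also held other fatty acid genes of muscle, named after their values were seen: Fabp3 at 22.5 FPKM against 0 in library 1, and Cpt1b at 6.10 against 0.0205. The summed FPKM of 11 adipocyte genes also stood highest in that library, at 634, against 57.7 and 290 in libraries 1 and 3, 20.1 to 40.5 in Control and 61.9 to 253 in the nanocluster group. Of the 10 adipocyte genes tested, 2 rose in each comparison with Control, Cfd and Car3 (none with libraries 1 and 2 alone, where limma gave 2 an unadjusted p under 0.05 in each), and Adipoq was listed at 0 in Control library 2.

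**Figure D3:**
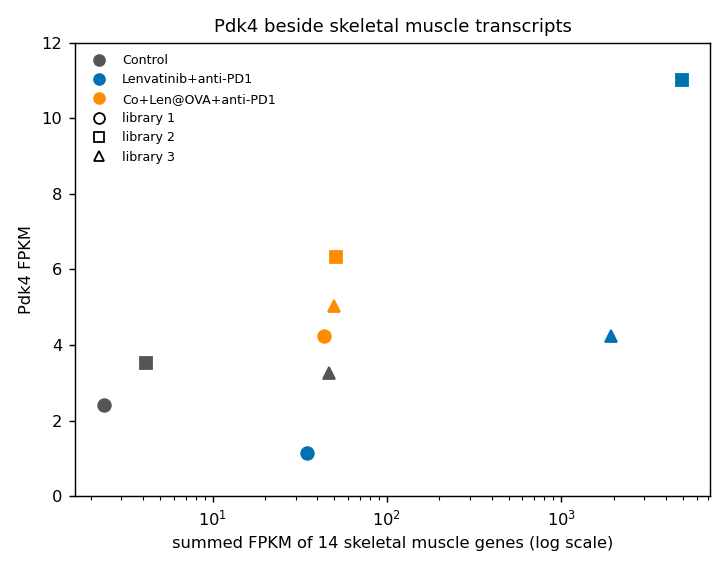
Pdk4 FPKM (y axis) against the summed FPKM of 14 skeletal muscle genes (x axis, log scale) in the 9 libraries; colours mark groups and symbols libraries 1 to 3. The highest Pdk4 value, 11.0 FPKM, is in the library with the largest muscle sum, 4912 FPKM. The lowest, 1.15 FPKM, is in library 1 of the same group, with a sum of 34.6 FPKM. Library 3 of that group, with a sum of 1946 FPKM, is at 4.25 FPKM of Pdk4. Libraries 2 and 3 of Co+Len@OVA+anti-PD1 are above it, at 6.33 and 5.03 FPKM with sums of 51.1 and 50.0 FPKM.

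Over the 9 libraries, Fabp1, Acadm, Ehhadh and Acaa1b shared a profile that Ppara, Cpt1a and Pdk4 did not follow. Pearson's r of log2(FPKM + 0.5), given as a description over 9 libraries that share 3 treatments, was 0.978 between Fabp1 and Acaa1b, 0.972 between Ehhadh and Acaa1b, 0.941 between Fabp1 and either Ehhadh or Acadm, and 0.903 between Acadm and Ehhadh. Ppara, highest in Control, had an r of 0.137 to 0.337 with these 4 genes. Cpt1a ran against them, with r from -0.775 to -0.593, and Pdk4 had an r of -0.234 to 0.0968 with the other 6 genes. Among the 7599 genes averaging 5 FPKM or more, those most like Fabp1 were Aldh1a7 (r = 0.996), Akr1c6 (0.995) and Selenbp2 (0.994). Akr1c6 measured 6.04 ± 1.19 FPKM in Control, 48.3 ± 2.31 with free lenvatinib and 1.22 ± 0.298 with the nanocluster. Among the 3 nearest to Acaa1b were Nat8f2 (r = 0.993) and Cyp2a5 (0.987). Nearest to Acadm were Hjv (0.983), Mpc1, a subunit of the mitochondrial pyruvate carrier (0.977), and the mitochondrial thiolase gene Acaa2 (0.973). Hjv measured 4.16, 25.1 and 12.7 FPKM in the 3 Lenvatinib+anti-PD1 libraries, highest where the muscle sum was highest. Nearest to Ehhadh were Amt (0.987), Vil1 (0.981) and Tecpr1 (0.978), and nearest to Ppara were Cops5 (0.978), Gm5559 (0.975) and Gm2574 (0.974). Cpt1a was most like Mknk1 (0.986), Cyp4f18 (0.984) and Tmem131 (0.983), and Cyp4f18 was at 4.36 FPKM in Control library 1 against 26.7 and 17.2 in the others. Pdk4 was most like Ndufv1 (0.946), Asb8 (0.922) and Acadl (0.920).

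Of 104 further genes tested in 9 lists, 32 rose and 10 fell with free lenvatinib against Control, with a median log2 difference of 0.20 against 0.05 over all genes. These are 30.8% and 9.62% of the 104, where 13.8% of all genes were called higher and 9.87% lower. With the nanocluster, 8 rose and 28 fell, with a median of -0.03 against 0.13 over all genes (7.69% and 26.9%, against 20.9% and 12.7% of all genes). Between the treatments, 7 rose and 39 fell with the nanocluster, with a median of -0.27 against 0.07 (6.73% and 37.5%, against 17.3% and 12% of all genes). The counts with libraries 1 and 2 alone were 2 and 0, 0 and 2, and 1 and 14. Counts of the single lists include the 7 genes and are to be read against the same shares of all genes. With free lenvatinib, the calls in the lists of the carnitine shuttle, pyruvate dehydrogenase and other targets lay near those shares. So did the falls in the lists of receptors and of the carnitine shuttle with the nanocluster. With libraries 1 and 2 alone no gene passed in any comparison in the lists of receptors and of pyruvate dehydrogenase, and none passed against Control in those of the carnitine shuttle, mitochondrial oxidation, omega-oxidation and other targets. Between the treatments 1 shuttle gene rose and 1 fell, and 1 mitochondrial, 2 omega-oxidation and 3 other target genes fell.

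Of the 13 genes for PPAR receptors and cofactors, 2 fell with free lenvatinib and 2 fell with the nanocluster against Control, Ppara among them each time, and none rose. In these comparisons 9.87% and 12.7% of all genes were called lower. Rxra, one of the partner receptor genes, measured 16.6 ± 2.22 FPKM in Control, 16.4 ± 0.804 with free lenvatinib and 13.3 ± 0.833 with the nanocluster (adjusted p = 0.979 and 0.0518). Rxrb fell with free lenvatinib by 0.20 on the log2 scale (adjusted p = 0.0214). Lpin1, whose product is a phosphatidate phosphatase and a coactivator of PPAR-alpha, fell with the nanocluster from 6.77 ± 2.32 to 2.45 ± 0.0813 FPKM (-1.25, adjusted p = 0.00654). It had an adjusted p of 0.0542 with free lenvatinib.

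Of the 16 genes for fatty acid uptake, binding and activation, 6 rose and 1 fell with free lenvatinib, and 2 rose and 4 fell with the nanocluster. Dbi, the acyl-CoA binding protein gene, rose with free lenvatinib from 32.5 ± 1.26 to 68.6 ± 3.55 FPKM (1.06, adjusted p = 5.68e-05) and was at 33.6 ± 1.73 with the nanocluster (0.05, adjusted p = 0.599). Slc27a2, a very-long-chain acyl-CoA synthetase gene, rose from 6.36 ± 3.94 to 19.2 ± 0.191 FPKM with free lenvatinib (adjusted p = 0.0145) and fell to 0.672 ± 0.115 with the nanocluster (-2.38, adjusted p = 0.00292). On libraries 1 and 2 alone, 2 uptake genes rose with free lenvatinib, none passed with the nanocluster and 3 fell between the treatments. Acsl5, a long-chain acyl-CoA synthetase gene, rose in both treated groups, from 40.8 ± 1.63 to 70.8 ± 3.88 and 67.0 ± 3.73 FPKM (adjusted p = 0.000275 and 0.000359). Of the 8 carnitine shuttle genes, 1 rose and 1 fell in each comparison with Control. With free lenvatinib 13.8% of all genes were called higher and 9.87% lower, and with the nanocluster 20.9% and 12.7%. Crot, the peroxisomal carnitine octanoyltransferase gene, rose with free lenvatinib (0.84, adjusted p = 0.000221), and Cpt1c, the isoform best known from brain, rose with the nanocluster from 1.30 ± 0.151 to 4.01 ± 0.962 FPKM (1.31, adjusted p = 0.00161).

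Of the 15 mitochondrial beta-oxidation genes, 6 rose and 1 fell with free lenvatinib, 4 fell and none rose with the nanocluster, and 8 fell and none rose between the treatments. Their summed FPKM was 325 to 330 in Control and 361, 449 and 416 in Lenvatinib+anti-PD1 libraries 1 to 3, higher in libraries 2 and 3, which held muscle RNA. The part of muscle RNA in these values was not tested, and no list was fitted without those libraries. Acaa2 rose from 46.9 ± 3.12 to 72.1 ± 5.15 FPKM with free lenvatinib (0.61, adjusted p = 0.00176) and fell to 28.0 ± 1.82 with the nanocluster (-0.74, adjusted p = 0.000638). Eci2, an enoyl-CoA isomerase gene, fell in both, from 19.6 ± 0.982 to 11.8 ± 0.573 and 7.19 ± 1.11 FPKM (adjusted p = 0.00270 and 0.000121). Acadl, the long-chain dehydrogenase gene, was at 55.3 ± 1.94, 55.0 ± 7.04 and 55.6 ± 2.29 FPKM (adjusted p = 0.929 and 0.960).

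The peroxisomal list, which holds Ehhadh and Acaa1b, had the most calls in number. Of its 19 genes, 11 rose and 1 fell with free lenvatinib, and 2 rose and 8 fell with the nanocluster. Between the treatments 11 fell and none rose. These counts were 2 rose and 0 fell, 0 rose and 1 fell, and 5 fell with libraries 1 and 2 alone. By share, omega-oxidation had more calls in each comparison, with all 5 of its tested genes lower between the treatments. Among all genes, 13.8% were called higher and 9.87% lower with free lenvatinib, 20.9% and 12.7% with the nanocluster, and 17.3% and 12% between the treatments. Cat, the catalase gene, rose with free lenvatinib from 45.9 ± 1.89 to 110 ± 1.27 FPKM (1.25, adjusted p = 2.10e-05) and was at 41.5 ± 1.96 with the nanocluster (-0.14, adjusted p = 0.0843). Scp2, the sterol carrier and thiolase gene, rose from 46.7 ± 0.446 to 71.5 ± 4.61 and fell to 28.6 ± 0.176 FPKM (adjusted p = 0.000431 and 0.000210). Acox2, the branched-chain and bile acid oxidase gene, differed in its pattern, at 4.38 ± 0.581 FPKM in Control, 4.80 ± 0.349 with free lenvatinib (adjusted p = 0.467) and 0.271 ± 0.0539 with the nanocluster (-2.66, adjusted p = 1.56e-05).

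Genes of omega-oxidation and of ketone body metabolism moved in different directions. Of the 5 omega-oxidation genes tested, 3 rose and 1 fell with free lenvatinib, 3 fell with the nanocluster, and all 5 fell between the treatments. Cyp4a12a rose from 0.646 ± 0.200 to 6.50 ± 0.857 FPKM with free lenvatinib (2.62, adjusted p = 0.000108), while Cyp4a14, a fatty acid hydroxylase gene that PPAR-alpha agonists induce strongly, fell from 4.55 ± 2.53 to 1.47 ± 0.154 (-1.24, adjusted p = 0.0243). Cyp4a10, induced by the same agonists, was at 3.52 ± 1.52 and 4.02 ± 0.0833 FPKM (0.24, adjusted p = 0.517), and fell to 0.116 ± 0.0388 with the nanocluster (-2.63, adjusted p = 0.000363). The Cyp4a genes are close copies, and the split of fragments between them is uncertain. Oxct1, which uses ketone bodies and is low in healthy hepatocytes, rose in both treated groups, from 17.9 ± 1.80 to 34.5 ± 1.92 and 39.8 ± 3.07 FPKM (adjusted p = 0.000478 and 0.000181). Of 5 ketone body genes tested, 4 rose with free lenvatinib, and 1 rose and 1 fell with the nanocluster. From libraries 1 and 2 alone, none passed with free lenvatinib, and 1 fell both with the nanocluster and between the treatments.

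Of 11 genes for pyruvate dehydrogenase, its kinases and phosphatases, 2 rose and 1 fell with free lenvatinib, and 1 rose and 3 fell with the nanocluster. Pdk2, another of the kinases, fell with the nanocluster from 15.9 ± 1.64 to 7.14 ± 1.81 FPKM (-1.12, adjusted p = 0.0124), and the phosphatase gene Pdp2 rose in both treated groups (0.89 and 0.63, adjusted p = 0.00118 and 0.00400). Of 19 other targets, 3 rose and 3 fell with free lenvatinib and 1 rose and 7 fell with the nanocluster. Among all genes, 13.8% were called higher and 9.87% lower with free lenvatinib, and 20.9% and 12.7% with the nanocluster. Creb3l3, a liver transcription factor gene that acts with PPAR-alpha in fasting, rose from 2.35 ± 0.321 to 6.02 ± 0.117 FPKM (1.20, adjusted p = 0.000431) and fell to 0.393 ± 0.0767 (-1.67, adjusted p = 8.80e-05). Fgf21, the fasting hormone gene, rose from 0.193 ± 0.0535 to 2.67 ± 0.252 FPKM with free lenvatinib (2.19, adjusted p = 0.000107). It was at 0.128 ± 0.0749 FPKM with the nanocluster (-0.15, adjusted p = 0.474). Its means in Control and the nanocluster group lay under the filter of 0.5 FPKM. It was thus tested only through its Lenvatinib+anti-PD1 values. Txnip, a glucose-responsive regulator of thioredoxin, fell in both, from 227 ± 37.6 to 60.2 ± 10.8 and 80.6 ± 1.19 FPKM (adjusted p = 0.000205 and 0.000466). Plin2, the lipid droplet coat protein gene, was at 75.3 ± 13.9, 74.5 ± 2.42 and 90.8 ± 4.52 FPKM and did not pass in either comparison with Control (adjusted p = 0.993 and 0.114).

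**Figure D4:**
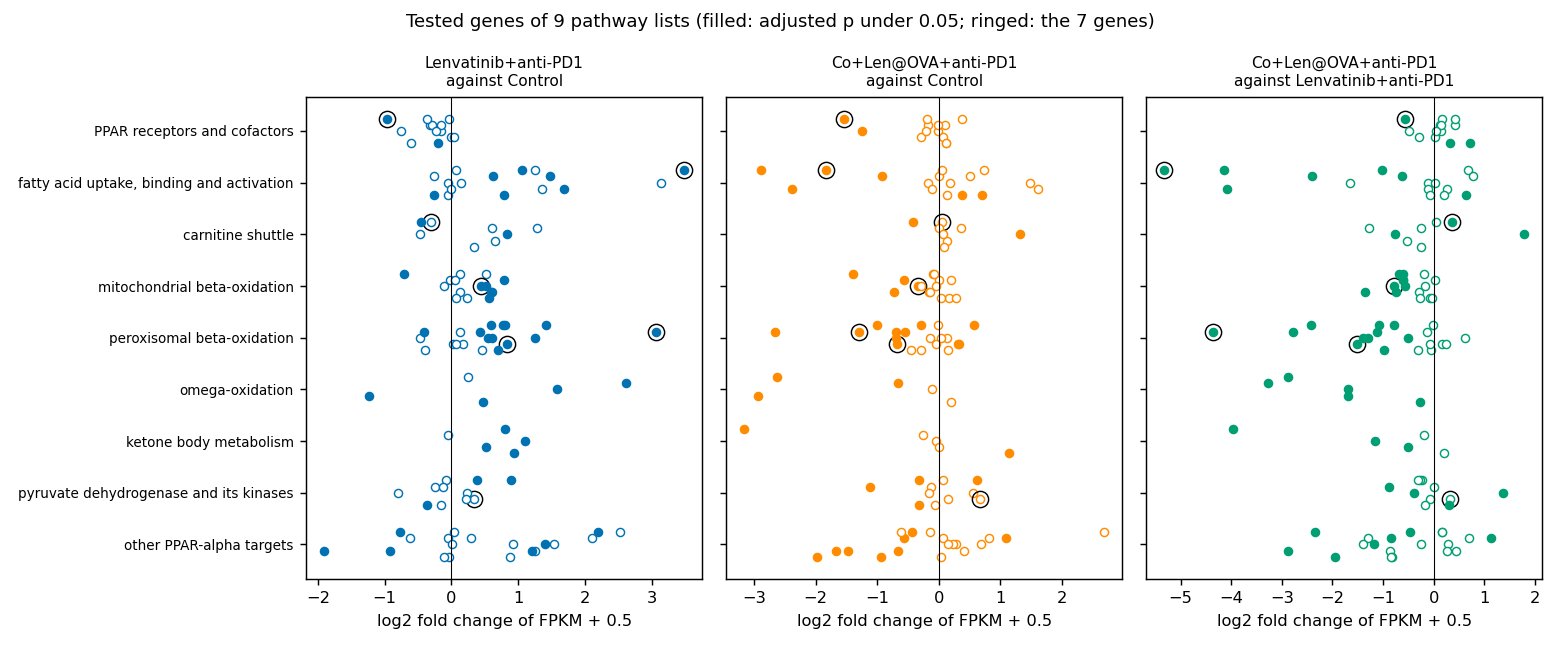
Differences on the log2(FPKM + 0.5) scale (x axis) of the tested genes of 9 pathway lists (y axis; vertical offsets within a list only separate points) in the 3 comparisons; filled points passed an adjusted p of 0.05 and rings mark the 7 genes. With free lenvatinib 11 of 19 peroxisomal genes rose, and between the treatments 11 of 19 fell, with Fabp1 and Acaa1b at the ends of their lists.

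Hepatocyte markers moved with the fall in the nanocluster group. Of 20 such genes, 19 fell in Co+Len@OVA+anti-PD1 against Control (median -3.15) and 18 fell against Lenvatinib+anti-PD1 (median -3.70). On libraries 1 and 2 alone these counts were 4 and 9, and limma gave 17 and 18 an unadjusted p under 0.05. Hnf4a passed in neither (adjusted p = 0.549 and 0.766), nor did Fgb between the treatments (adjusted p = 0.133). Their summed FPKM was 2793 to 6763 in Control, 4683 to 4931 in Lenvatinib+anti-PD1 and 856 to 1194 in Co+Len@OVA+anti-PD1, and none was at 0. Of 8 hepatoma genes tested, 4 fell and 1 rose with the nanocluster against Control, with sums of 683 to 759, 702 to 743 and 431 to 490 FPKM in the same order of groups. T cell markers moved the other way, with 8 of 10 higher in the nanocluster group than in Control and sums of 18.1 to 79.2, 59.3 to 64.9 and 152 to 216 FPKM. No hepatoma or T cell gene passed with libraries 1 and 2 alone, and limma gave 4 hepatoma genes lower and 7 T cell genes higher an unadjusted p under 0.05. The part of the cell makeup in the fall of Fabp1, Ppara, Acadm, Ehhadh and Acaa1b was not tested.

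Hepatocyte markers are set beside the rise of Fabp1 and Acaa1b with free lenvatinib. Of the 20 genes, 2 rose in Lenvatinib+anti-PD1 against Control, Apob and Mup20, and none fell. In that comparison 13.8% of all genes were called higher and 9.87% lower. The median of the 20 was 0.49, against 0.05 over all genes. Only 1 of the 20 rose with libraries 1 and 2 alone. Mup20, singled out after its values were seen, was the marker closest in size, with a rise of 2.74 (adjusted p = 2.09e-05). In Control libraries 1 to 3, Alb was at 3386, 1686 and 2285 FPKM and Fabp1 at 17.4, 17.0 and 20.3. Between the highest and lowest Control library, 15 of the 20 markers differed over 2-fold, and none of the 7 genes did, Ppara having the widest ratio. Library 1 was the highest Control library for 18 of the 20 markers and for 2 of the 7 genes, Ppara and Acadm. The part of hepatocyte content in the rise of Fabp1 and Acaa1b was not tested. Fabp1 is also made by enterocytes and, in humans, by kidney tubule. Of 4 enterocyte genes tested, Fabp2 and Vil1 rose with free lenvatinib and fell with the nanocluster, with summed FPKM over 7 genes of 40.6 to 44.6 in Control, 56.1 to 62.4 and 34.8 to 35.7, most of it Vil1. None of the 4 passed with libraries 1 and 2 alone, where limma gave 2 an unadjusted p under 0.05 for the rise and 1 for the fall. Of the enterocyte markers, Sis and Alpi were listed at 0 in every Lenvatinib+anti-PD1 library and Lct at 0.0410 to 0.0814 FPKM, and the summed FPKM of 6 kidney tubule genes was at most 0.277 there. The part of enterocyte or kidney RNA in the Fabp1 values was not tested. Mitochondrially encoded mRNA rose for 9 of 13 genes with free lenvatinib and 2 with the nanocluster (13.8% and 20.9% of all genes). All 13 fell between the treatments (12% of all genes). The sums were 35744 to 47778 FPKM in Control, 56553 to 64488 with free lenvatinib and 39092 to 42923 with the nanocluster. None passed with libraries 1 and 2 alone. There limma gave an unadjusted p under 0.05 to 9 and 1 for the rises and to 9 for the fall. The part of this RNA in the FPKM of other genes was not tested.

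**Figure D5:**
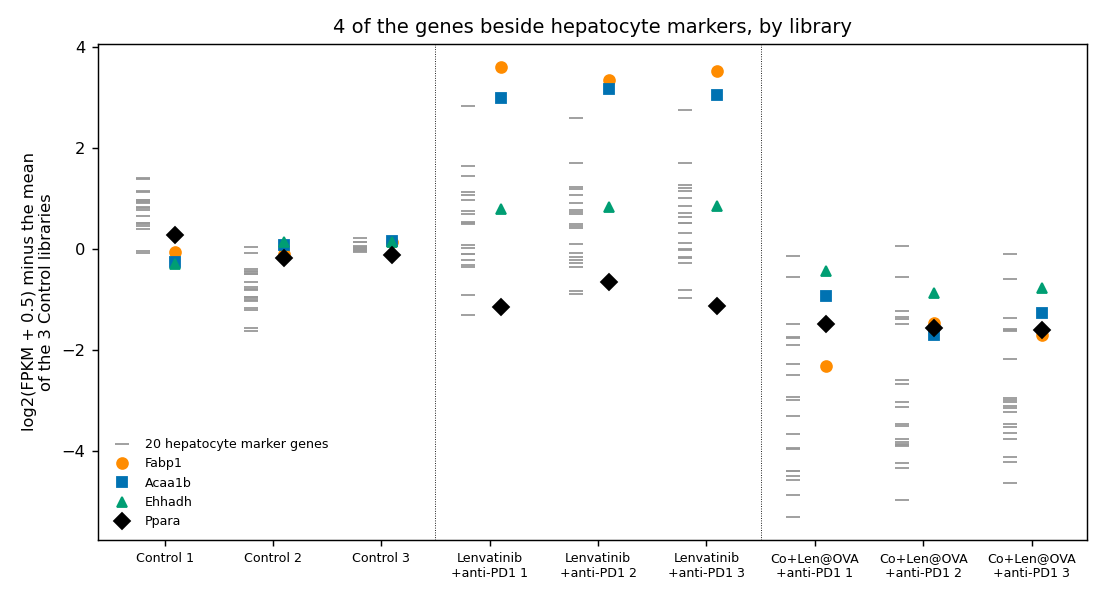
log2(FPKM + 0.5) minus the mean of the 3 Control libraries (y axis) in each library (x axis) for Fabp1, Acaa1b, Ehhadh and Ppara (symbols) and for 20 hepatocyte marker genes (grey dashes). In Lenvatinib+anti-PD1, Fabp1 and Acaa1b lie above all 20 markers and Ppara below most, and in Co+Len@OVA+anti-PD1 most markers lie below the 4 genes.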

How the data were processed

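RNA from 9 tumours (3 groups of 3) was sequenced as strand-marked poly(A) libraries in paired reads of 150 bases, per the labels' protocols. The authors deposited FPKM for 32761 genes, in a table described as raw counts. Per the submitters' processing notes, fastp, StringTie and edgeR were used. No aligner, genome build or annotation is given in the sources used here. Steps of whole fragments could not be recovered: 21.0% to 26.5% of low values lay within 0.05 of a whole fragment at the best depth, where an even spread gives 10%. Depth is thus unknown, and no count test was run.

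FPKM were used as deposited. limma 3.58.1 (R 4.3.3; trend and robust) was fitted to log2(FPKM + 0.5) of 15353 genes averaging 0.5 FPKM or more, all 9 libraries together (6 residual degrees of freedom; 3 with libraries 1 and 2 alone), adjusted over all genes at 0.05. It was tested on simulated data. The 7 genes and the lists (233 of 236 symbols found) were chosen with earlier results of these data known. Named genes are the 7, up to 3 smallest adjusted p and 2 highest unpassed means per pathway list and comparison, 3 nearest patterns for each of the 7, and the 3 highest means per cell type list. Hnf4a, Apob, Fgb, Adipoq, the myosins, Sis, Alpi and Lct lie outside this rule and were chosen after their values were seen. Some genes that the rule names are not reported here. Leaving out Lenvatinib+anti-PD1 libraries 2 and 3 was added after seeing the data. It leaves that group 1 library, assumed to vary like the others. The other settings were pseudocounts, filters, scalings, variance models, fits of 2 groups, a replicate block and leaving out each library.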

Additional observations from a re-analysis of the deposited data

How the results depend on the processing

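Fabp1 and Acaa1b kept direction and call in all 20 other settings for Lenvatinib+anti-PD1 against Control and between the treatments. Against Control, the fall of Fabp1 with Co+Len@OVA+anti-PD1 was lost with libraries 1 and 2 alone (-1.81, adjusted p = 0.0732, over all settings 0.000545 to 0.0732). With libraries 1 and 2 alone, 0, 2 and 2 of the 7 genes were called (Co+Len@OVA+anti-PD1 against Control, Lenvatinib+anti-PD1 against Control, between the treatments), and 80, 53 and 365 of all genes, against 5155, 3636 and 4507. This fit has fewer samples. Without Lenvatinib+anti-PD1 libraries 2 and 3, 2 of the 7 were called in Lenvatinib+anti-PD1 against Control, and 3305, 326 and 1121 of all genes. A fit of the 2 groups alone called 3279 genes in Co+Len@OVA+anti-PD1 against Control. Leaving out each library in turn called 3 to 5, 4 to 6 and 4 to 6 of the 7 genes, and 2849 to 5770, 1957 to 5053 and 2381 to 6592 of all genes. The 3 is without Co+Len@OVA+anti-PD1 library 3, which also gave 2849 and 2381. Lenvatinib+anti-PD1 against Control fell to 2410, 1957 and 2138 without Lenvatinib+anti-PD1 library 2, its library 3 and Control library 3, and the treatments to 2900 and 2525 without Lenvatinib+anti-PD1 libraries 1 and 3.

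Signs reversed for Cpt1a in Co+Len@OVA+anti-PD1 against Control (-0.094 under median-of-ratios scaling, -0.030 under upper quartile scaling, -0.090 without Control library 1, and -0.090 to 0.15 leaving out each library). They reversed for Pdk4 in Lenvatinib+anti-PD1 against Control (-0.34 without Lenvatinib+anti-PD1 library 2, -1.10 without libraries 2 and 3, and -0.34 to 1.07 leaving out each library) and between the treatments (-0.39 without library 1, and -0.39 to 1.01 leaving out each library). The cause was not tested. A minimum mean of 1 FPKM leaves out Ppara.

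Same-numbered libraries showed no shared deviations: r of the deviations of the 9 same-numbered pairs ran from -0.248 to 0.0785. For differently numbered pairs it ran from -0.187 to 0.244. Whether the numbers mark a shared batch cannot be told from these values. With the replicate number as a block, 4025, 2753 and 3307 of all genes were called, and the calls of Acadm in Co+Len@OVA+anti-PD1 against Control (adjusted p = 0.0528) and of Ppara and Cpt1a between the treatments (0.0934 and 0.0822) were lost. Depth is unknown, so the precision of low values such as those of Ppara cannot be given.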
